A study of Mus musculus with 8 samples.

Results

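The genes described here are Lifr, Il6st, Jak1, Jak2, Stat3, Socs3, Gbx2, Pim1 and Pim3. They are parts or targets of the pathway that carries leukemia inhibitory factor (LIF) signals into the nucleus of mouse embryonic stem cells. Accessible regions, called peaks below, were taken as theirs where the peak centre lay inside the gene or within 50 kb of it. Of 134407 peaks in the deposited table, 176 met this rule for the 9 genes. Of these, 95 lay inside or nearest to one of the 9 genes, and the other 81 lay inside or nearer to another protein-coding gene and are given apart, under that gene's name. The data are ATAC-seq, in which the Tn5 transposase cuts and tags open chromatin, from E14 cells, an established wild-type (WT) mouse embryonic stem cell line. The 4 control libraries came from cells in serum and LIF medium, with 15% serum and 1000 U/mL LIF, and the 4 paused libraries from cells kept for 24 h in that medium with 200 nM INK128, a small molecule that blocks the kinase mTOR. Every group therefore had LIF, and no group without it was analysed here, so the comparison is of an mTOR inhibitor in the presence of LIF. The labels name no vehicle for the control cells and do not say whether the 4 replicates were separate cultures, so the p-values measure the spread between these samples, which may be technical.

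LIF binds a receptor made of Lifr and the shared signal transducer gp130, which Il6st encodes. The Janus kinases Jak1 and Jak2 sit on the receptor tails and phosphorylate Stat3, which moves to the nucleus, binds DNA as a dimer and switches on genes that keep mouse embryonic stem cells from differentiating. Socs3 is induced by Stat3 and blocks the receptor complex in return, and the homeobox factor Gbx2 and the serine/threonine kinases Pim1 and Pim3 are known as LIF and Stat3 targets in these cells.

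The sequence before the first listed start site of these genes is GC-rich. The start-site peaks of Gbx2, Il6st, Jak1, Jak2 and Stat3 reach into it with a part that is outside the gene. The stretches below show that part for Gbx2, Il6st, Jak2 and Stat3, and it holds a GC box in these 4. The Jak1 part, of 111 bases, holds 0 GC boxes and is not printed. The promoter sequences are from RefSeq, build GRCm38.p6, where all 9 genes were matched, and coordinates are those of GRCm38 (mm10). The GC box searched was GGGCGG on either strand, CCGCCC when read on the other, and is in capitals. The stretch for Gbx2 covers chr1:89931177-89931368 on the minus strand, that for Il6st chr13:112463923-112464069 on the plus strand, that for Jak2 chr19:29251646-29251802 on the plus strand, and that for Stat3 chr11:100939595-100939660 on the minus strand. The short Socs3 stretch covers chr11:117969501-117969530 on the minus strand, and its capitals mark the letters TTCNNNGAA, the general form of the site that Stat dimers bind.
Gbx2: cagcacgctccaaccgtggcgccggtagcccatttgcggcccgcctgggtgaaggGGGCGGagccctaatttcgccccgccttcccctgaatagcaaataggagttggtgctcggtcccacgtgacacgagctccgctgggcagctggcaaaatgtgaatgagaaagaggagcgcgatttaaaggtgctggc
Il6st: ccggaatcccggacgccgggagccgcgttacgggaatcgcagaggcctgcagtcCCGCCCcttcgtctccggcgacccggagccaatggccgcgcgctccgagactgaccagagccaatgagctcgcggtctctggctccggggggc
Jak2: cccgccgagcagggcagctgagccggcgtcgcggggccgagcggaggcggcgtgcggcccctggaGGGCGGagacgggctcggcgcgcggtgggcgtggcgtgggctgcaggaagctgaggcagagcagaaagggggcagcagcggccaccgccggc
Stat3: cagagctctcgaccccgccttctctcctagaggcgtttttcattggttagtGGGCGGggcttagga
Socs3: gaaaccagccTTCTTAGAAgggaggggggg

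Searched in the 250 bases before each listed start site, the GC box was present at the first listed start site of all 9 genes, with 7 matches at Pim1, 3 at Pim3, 2 each at Lifr and Jak2 and 1 at each of the others. Of all 32851 promoter sequences of this length, 32.7% held it. GC content at these 9 start sites ran from 60.8% at Stat3 to 82.4% at Lifr and Pim1, against a median of 52.4% over all promoters. At the second listed start sites of Lifr and Pim1 it was 50.8% and 48%, with 0 GC boxes. The values for all promoters take in every listed start site and not the first alone. TTCNNNGAA was found before the start site of 1 of the 9 genes, Socs3, as TTCTTAGAA beginning 154 bases before the start and lying 144 bp from the edge of the Socs3 start-site peak. The same letters were in 7.02% of all promoters, and the narrower form TTCCNGGAA, a subset of the first, was in 0.913% of them and in none of the 9 genes' windows. The listed Socs3 start site lies inside the gene span used here, and so does the TTCTTAGAA. A match describes the letters only, and Stat3 binding was not measured here.

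The shallowest library, the third control replicate, had 4434037 reads in peaks, the deepest, the first control replicate, 21161767, and the other 6 lay between 5208596 and 7238935. Values below are reads per 201 bp peak divided by 1 factor per library, as the authors deposited them, and are called scaled reads. On this scale the values of all peaks summed to between 7315541 and 7653989 in the control libraries and to between 8062921 and 8640948 in the paused ones. The median log2 change of all 127402 peaks tested, paused against control, was 0.10, and that of the summed values of 18178 genes was 0.15, so the changes of the 9 genes are also given less that median and under scalings that remove it. Of the start sites of 6 embryonic stem cell marker genes, 4 (Sox2, Zfp42, Esrrb and Nanog) had a peak within 1 kb, and the strongest peaks of all 6 stood above 95.8% of all peaks. For the blood cell markers, the strongest peaks stood at the 31.1 to 68.8 percentiles. For fibroblast, trophoblast and primitive endoderm markers they stood at the 77.0 to 98.1 percentiles, in the upper part of the range as for the stem cell markers, and peaks give no expression level. Fewer cells with a site open and less opening in each cell cannot be told apart in bulk libraries.

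Accessibility summed over each gene's own peaks was higher in paused cells at 7 of the 9 genes: Lifr, Il6st, Jak1, Stat3, Socs3, Gbx2 and Pim1. The rises were modest, from 1.09-fold at Pim1 to 1.23-fold at Gbx2. Jak2 at 1.10-fold and Pim3 at 1.07-fold did not pass the test, and no gene was lower. In each of the 7 genes called, the lowest paused library lay above the highest control library, which was so for 25.7% of all genes. Calls are from limma-trend on log2(sum + 1) at an adjusted p under 0.05, and by the same rule 29.8% of all 18178 genes were higher and 1.40% lower in paused cells. After the median of all genes was taken off, the log2 changes ran from 0.16 at Gbx2 and 0.14 at Lifr to -0.02 at Pim1 and Jak2 and -0.06 at Pim3. Most of these calls depended on the scaling. With TMM rescaling, which sets the bulk of peaks level between libraries, Lifr remained the 1 gene called at a limma adjusted p of 0.0159, beside 7.56% of all genes called higher and 2.38% lower. With a loess correction along peak strength, which called 4.67% of all genes higher and 4.30% lower, none of the 9 was called. The smallest adjusted p was then 0.0730, at Lifr, and the signs of Jak2, Pim1 and Pim3 turned. In edgeR with TMM, where 8.56% of all genes were higher and 2.48% lower, Lifr and Gbx2 were called, at adjusted p-values of 0.0122 and 0.0422.

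**Figure D1:**
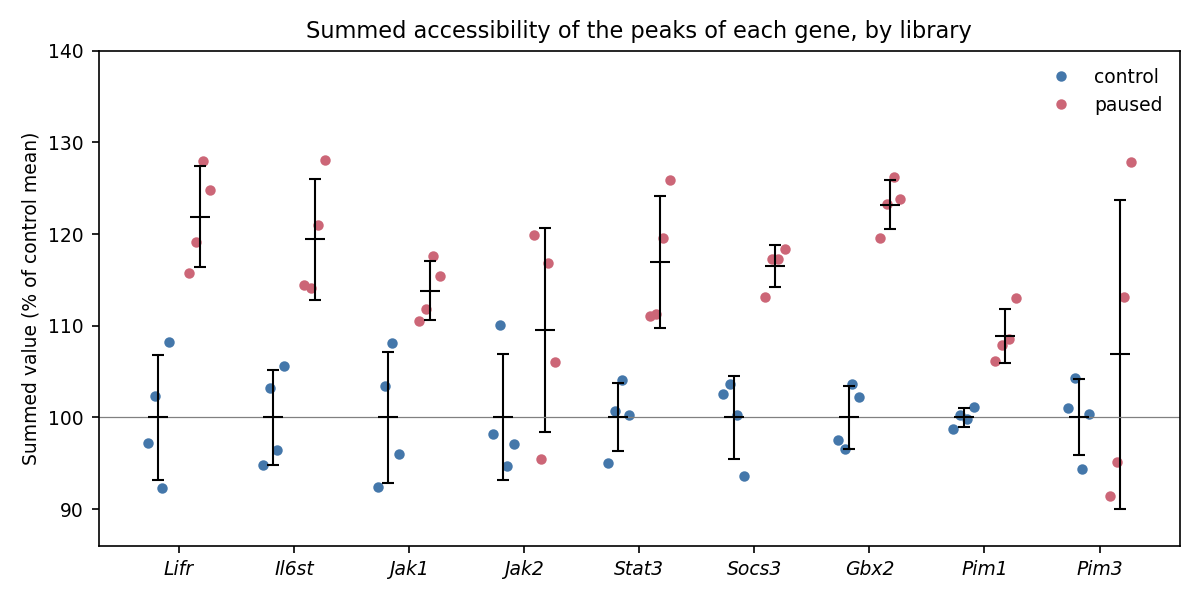
Summed accessibility of each gene's own peaks in each of the 8 libraries, as a percent of the control mean of that gene. Points are libraries, and bars show the mean and SD over 4 libraries. The paused points of Jak2 and Pim3 overlap the control points, and those of the other 7 genes lie above them.

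Among single peaks, 92 of the 95 had a mean of at least 10 scaled reads and were tested, and the 3 left out, 1 each at Jak1, Jak2 and Pim1, were below that mean. Of the 92, 13 were higher and 1 was lower in paused cells, or 15.2%, against 13.9% of all tested peaks. The share called higher, 14.1%, stood beside 11.0% of all tested peaks, and 2.91% of all were lower. A share this near the background is not a result about the 9 genes. The median log2 change of the 92 peaks was 0.16, beside 0.10 for all tested peaks, and changes ran from -0.75 to 0.86, so no single peak reached a log2 change of 1. All 4 paused values stood above all 4 control values at 15 of the 92 peaks, or 16.3%, beside 13.0% of all tested peaks, and below them at 1, beside 4.36%. With TMM rescaling 5 of the 92 were called higher and 2 lower, beside 5.99% and 4.15% of all tested peaks. With the loess correction 5 were higher and 2 lower, beside 5.10% and 3.50%, and in edgeR with TMM 5 were higher and 3 lower, beside 7.40% and 5.31%. In the authors' deposited table, 12 of the 92 peaks were higher and 0 lower at an FDR under 0.05, beside 9.69% and 1.81% of all 127402 peaks by the same FDR.

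Peaks of high mean value held most of the calls. Of the 26 peaks with a mean of at least 100 scaled reads, 9 were called higher and 0 lower, and 24 had a change above 0, or 92.3%, beside 88.9% of all tested peaks of that strength. In all tested peaks of that strength 19.5% were called higher and 0.525% lower, and their median log2 change was 0.20, beside 0.28 for the 26. Of the 66 weaker peaks tested, 4 were called higher and 1 lower, with a median log2 change of 0.07, beside 9.22% of all weaker peaks called higher, 3.39% lower and a median of 0.05. The strength at which the lists were split was chosen after the data were seen. Across the whole table the median change rose with strength, from -0.22 in the weakest of 20 bins to 0.20 in the strongest.

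**Figure D2:**
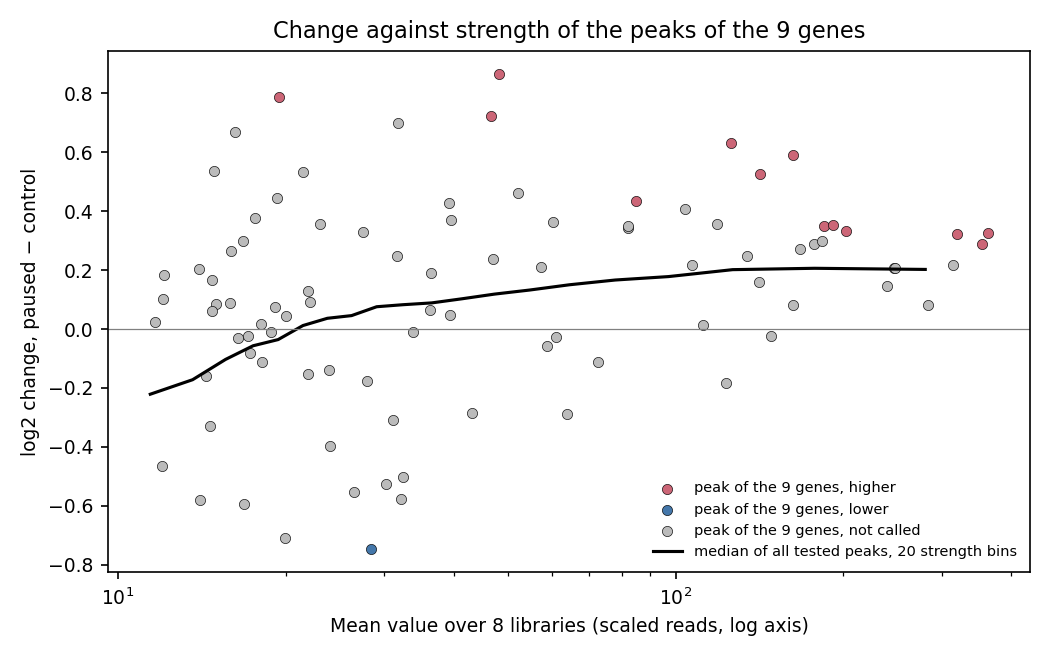
Log2 change of the 92 tested peaks of the 9 genes, paused less control, against their mean value over 8 libraries on a log axis. Colours give the limma call, and the black line is the median of all 127402 tested peaks in 20 bins of strength, running from -0.22 to 0.20.

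Lifr, the LIF-binding subunit, spans chr15:7090610-7197489 on the plus strand and had 25 peaks of its own, the most of the 9 genes. Their summed value in the control libraries was 1101, 1159, 1045 and 1226 scaled reads, and in the paused libraries 1310.4, 1349, 1449 and 1413. The paused libraries were all above the control ones, and the mean went from 1132 ± 77.5 to 1380.3 ± 62.4 (SD, n = 4 each), a log2 change of 0.29 (SE 0.05, limma adjusted p = 0.000354). Of the 25 peaks, 4 were higher and 0 lower, and 19 had a change above 0. The mean values of its peaks ran from 11.6 to 201.9 scaled reads, with 16.1% of the summed value in the strongest of them. Without that peak the log2 change was 0.28.

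The Lifr peak of smallest p lay inside the gene at chr15:7115557-7115757, 13.9 kb before the first of its 2 listed start sites. It held 123, 131, 130.4 and 132 scaled reads in the control libraries and 220.3, 196, 191 and 177 in the paused ones. The groups did not overlap, and the scaled values of the control libraries were close to each other. The unscaled reads in this peak ran from 77 to 357 over the 8 libraries. The log2 change was 0.59 (SE 0.12, limma adjusted p = 0.000569), and the peak was called under all 17 alternatives run, at adjusted p-values from 0.00012 to 0.0225. The strongest Lifr peak, 3.37 kb after the start site at chr15:7132846-7133046, held 157, 180.3, 171 and 207 scaled reads in control and 206, 222, 239 and 232 in paused libraries. One paused library fell just under the highest control library there, and the log2 change of 0.33 (SE 0.11) passed at a limma adjusted p of 0.0438. It was called in 2 of 8 fits that left out 1 library, and not with TMM or loess scaling. At the start site itself, the peak at chr15:7129560-7129760 held 144, 202, 132 and 163 scaled reads in control and 209, 177, 196 and 193 in paused libraries. These ranges overlapped, and the log2 change of 0.29 (SE 0.12) had a limma adjusted p of 0.114, or 0.0257 without control replicate 2. Both listed Lifr start sites lie inside the gene span. A further peak, outside the naming rule, lay 138 bp upstream of that span, at chr15:7090372-7090572. It went from 52.8 ± 11.1 to 67.7 ± 10.9 scaled reads (SD, n = 4 each; log2 change 0.36, limma adjusted p = 0.144).

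Picked out after their values were seen, the other Lifr peaks called lay inside the gene 27.5 kb after the second start site and 33634 bp upstream of the gene. The first, at chr15:7167915-7168115, went from 34.8 ± 7.39 to 58.6 ± 14.8 scaled reads (SD, n = 4 each), with a log2 change of 0.72 (limma adjusted p = 0.00863). Its groups overlapped, with paused replicate 1, at 42.7, below control replicate 2, at 45.4. It was called in 7 of 8 fits without 1 library, the exception being the fit without paused replicate 3, at 0.0505. The call held with TMM, loess and edgeR with TMM, but not in DESeq2, at an adjusted p of 0.106. The second, at chr15:7056876-7057076, was a weak peak of 14.0 ± 2.54 scaled reads in control and 25.0 ± 5.74 in paused libraries. Its adjusted p was 0.0427 with all 8 libraries, and it was called in 1 of the 8 fits without a library.

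Il6st, which encodes gp130, spans chr13:112464070-112506860 on the plus strand and had 12 peaks. Their summed value was 707, 770.4, 720 and 788 scaled reads in control and 854, 852, 903 and 956 in paused libraries. The groups did not overlap, with means of 746 ± 38.8 and 891 ± 49.4 (SD, n = 4 each) and a log2 change of 0.26 (SE 0.06, limma adjusted p = 0.00287). The strongest peak, which is also the start-site peak, did not carry this change. At chr13:112463923-112464123, the sequence of whose outer part is printed above, it held 263, 293, 284 and 260.1 scaled reads in control and 302, 257, 313 and 294 in paused libraries. The ranges overlapped over most of their width, with a log2 change of 0.08 (SE 0.11, 95% interval -0.13 to 0.30, limma adjusted p = 0.648). Without that peak the sum of the other 11 changed by 0.35 on the log2 scale.

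Away from the Il6st start site, 3 peaks were higher and 0 lower. The peak of smallest p lay inside the gene, 22.8 kb after the start site at chr13:112486745-112486945, and showed the largest change of the 92 peaks. It held 27.7, 43.0, 27.1 and 39.7 scaled reads in control and 69.2, 56.8, 62.1 and 60.9 in paused libraries. Every paused library exceeded every control library, with a log2 change of 0.86 (SE 0.18, limma adjusted p = 0.00106). It kept its call under all 16 alternatives that gave it a value, at adjusted p-values from 8.1e-05 to 0.0169. A second peak, chosen after its values were seen, lay 1.46 kb before the start site at chr13:112462509-112462709. It held 83.7, 97.9, 84.7 and 129 scaled reads in control and 133, 159, 141 and 176 in paused libraries, again without overlap, and changed by 0.63 on the log2 scale (SE 0.14, limma adjusted p = 0.00165). Together with the Lifr peak of smallest p, these 2 Il6st peaks made up the 3 of 14 called peaks that kept their call with TMM, loess, edgeR and DESeq2 and in all 8 fits without 1 library. The share of all called peaks that kept theirs in this way was not worked out, so the count is not a result about these genes.

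**Figure D3:**
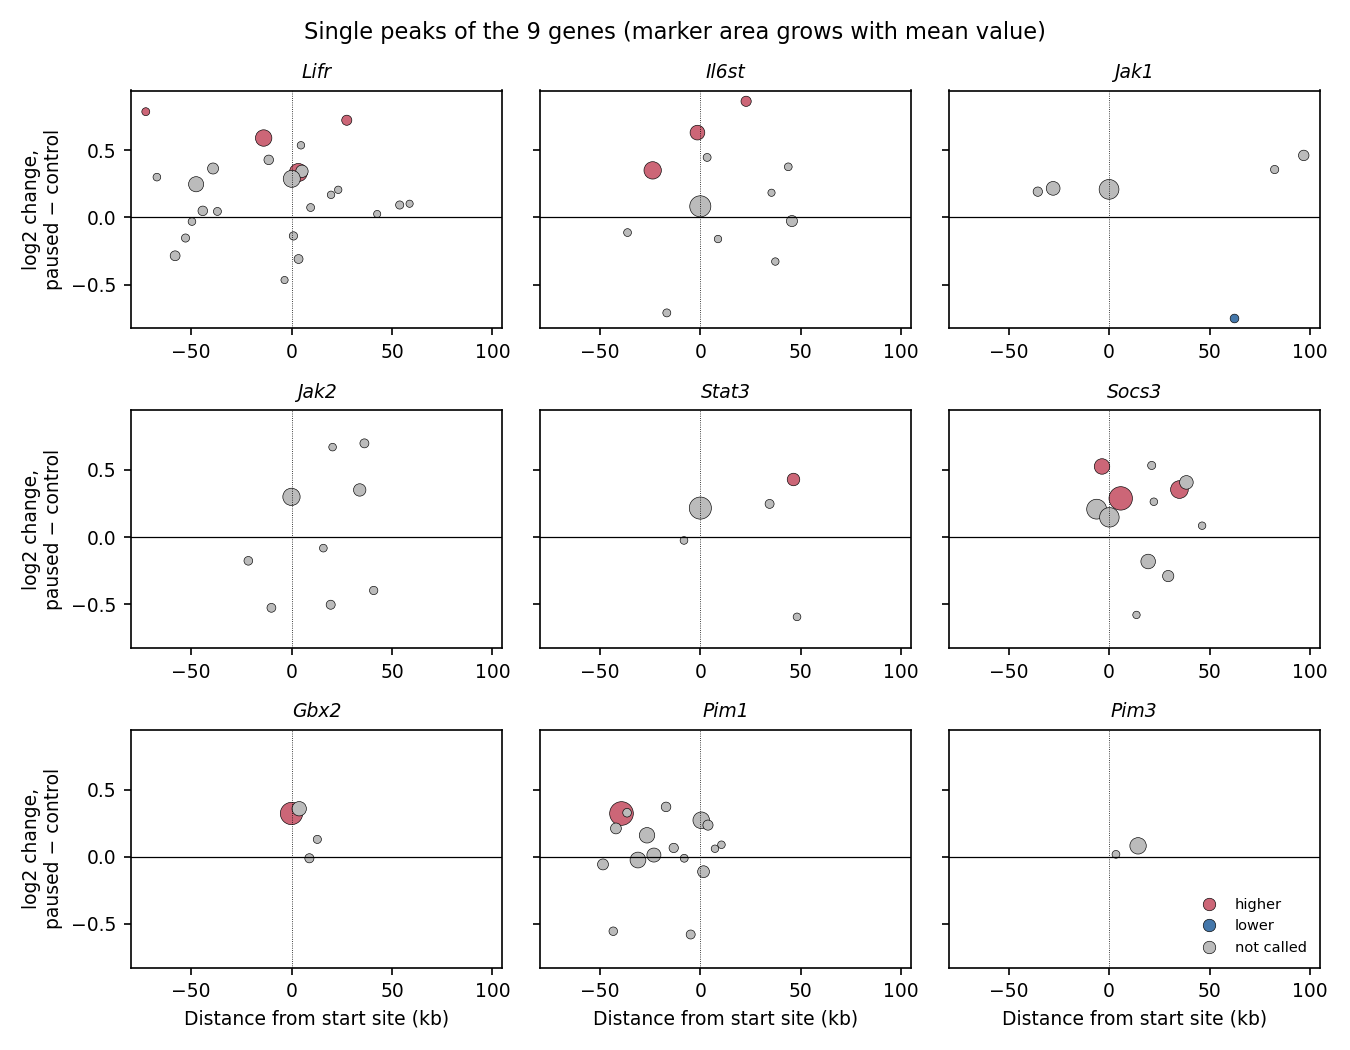
Log2 change of each tested peak, paused less control, against its distance from the nearest listed start site in kb, oriented along the gene, for each of the 9 genes. Marker area grows with the mean value, and colours give the limma call. The highest points of Lifr and Il6st lie away from the start sites.

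Jak1, a kinase bound to gp130 and Lifr, spans chr4:101151974-101265282 on the minus strand and had 7 peaks, 6 of them tested. Summed, they held 434, 486, 508 and 451 scaled reads in control and 519, 525, 552 and 542 in paused libraries. The paused libraries were above the control ones, but the log2 change of 0.19 (SE 0.07, limma adjusted p = 0.0444) passed by a small margin. The call was lost in 5 of the 8 fits without 1 library, those without control replicates 1 and 4 and those without paused replicates 2, 3 and 4, at adjusted p-values from 0.0622 to 0.151. Strongest of the gene was the start-site peak at chr4:101265193-101265393, which held 217, 240.1, 239 and 217 scaled reads in control and 264, 269.7, 258 and 264 in paused libraries. It did not overlap between groups, yet its log2 change of 0.21 (SE 0.11) had a limma adjusted p of 0.184.

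The 1 peak called lower among the 92 was inside Jak1, 62.4 kb after its start site at chr4:101202755-101202955. The peak held 27.7, 38.2, 40.6 and 36.7 scaled reads in control and 19.6, 20.5, 27.9 and 16.4 in paused libraries. The highest paused library, replicate 3, lay just above the lowest control library, replicate 1, and the others stood apart. The log2 change was -0.75 (SE 0.22, limma adjusted p = 0.0214), and the call held with TMM, at 0.0121, and with loess, at 0.0166, but not in DESeq2, at 0.0760. It was lost in 4 of 8 fits, those without control replicates 2, 3 and 4 and that without paused replicate 4, with adjusted p-values up to 0.0773.

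Jak2, the second kinase, spans chr19:29251803-29313095 on the plus strand and had 10 peaks, none of the 9 tested being called. In sum these held 425, 477, 409.8 and 420.3 scaled reads in control and 519, 413, 506 and 459 in paused libraries. Paused replicates 2 and 4 lay among the control values. The log2 change of 0.13 (SE 0.08, limma adjusted p = 0.218) had a 95% interval of -0.04 to 0.29, which takes in the change of Jak1. The start-site peak, at chr19:29251646-29251846, held 138, 217, 144 and 156 scaled reads in control and 273, 169, 185 and 182 in paused libraries. Paused replicate 1 was the highest of the 8 and the other 3 paused libraries lay within the control range, with a log2 change of 0.30 (SE 0.14, limma adjusted p = 0.143). Without that library the log2 change was 0.15, and without control replicate 2 it was 0.44 and called, at an adjusted p of 0.0249. Without this strongest peak, the sum of the other 9 changed by 0.01 on the log2 scale. The Jak2 peak of smallest p, 36.3 kb inside the gene at chr19:29287958-29288158, went from 24.9 ± 10.3 to 38.8 ± 8.70 scaled reads (SD, n = 4 each; log2 change 0.70, limma adjusted p = 0.0524). It was called without control replicate 1, at 0.0411, and without control replicate 2, at 0.0168, and stood at 0.40 on the log2 scale without control replicate 3, at an adjusted p of 0.262.

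Stat3, the transcription factor of the pathway, spans chr11:100886806-100939594 on the minus strand and had 5 peaks. The sum over them was 407, 431, 445 and 429 scaled reads in control and 475, 476, 512 and 539 in paused libraries. All paused sums exceeded all control sums, and the log2 change was 0.22 (SE 0.07, limma adjusted p = 0.0211). It was not called without control replicate 1, at 0.0667, or without paused replicate 4, at 0.0943. The start-site peak at chr11:100939460-100939660, whose GC box is printed above, held 67.6% of the gene's summed value. It held 261, 306, 303 and 292 scaled reads in control and 329, 322, 348 and 351 in paused libraries, without overlap, and its log2 change of 0.22 (SE 0.10) had a limma adjusted p of 0.155. The peak called lay inside the gene 45.9 kb after the start, at chr11:100893536-100893736. It held 75.7, 63.3, 76.2 and 72.0 scaled reads in control and 80.8, 97.8, 102 and 110.1 in paused libraries, again without overlap. Its log2 change was 0.43 (SE 0.14, limma adjusted p = 0.0333), it was called in 2 of 8 fits without 1 library, and neither TMM nor loess scaling kept the call.

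Socs3, the inhibitor that Stat3 induces, is a short gene at chr11:117966079-117970336 on the minus strand, and 9 of its 12 peaks lay downstream of it. Their summed value was 1453, 1468, 1421 and 1325 scaled reads in control and 1602, 1661, 1662 and 1677 in paused libraries. The paused libraries stood well apart from the control ones and close to each other, with means of 1417 ± 63.9 and 1650.4 ± 32.8 (SD, n = 4 each). The log2 change was 0.22 (SE 0.05, limma adjusted p = 0.000944) and was called in all 8 fits that left out 1 library, but not with TMM rescaling, at 0.0787. Of the 12 peaks, 3 were higher and 0 lower.

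Among the Socs3 peaks, that of smallest p lay upstream, 3.56 kb before the start site at chr11:117972829-117973029. It held 108, 109, 125 and 122 scaled reads in control and 144, 196, 159.8 and 172 in paused libraries, without overlap. Its log2 change of 0.53 (SE 0.12, limma adjusted p = 0.00344) passed in all 8 fits without 1 library, and was lost with the loess correction, at 0.0800. The strongest peak was downstream, 5.75 kb from the start site at chr11:117963521-117963721, with 332, 321, 325 and 299.8 scaled reads in control and 374, 364, 420.5 and 404 in paused libraries. All paused values exceeded all control values, and the log2 change was 0.29 (SE 0.10), yet the limma adjusted p of 0.0482 rose above 0.05 whichever library was left out. The start-site peak at chr11:117969168-117969368, near the TTCTTAGAA printed above, held 223, 239, 232 and 216 scaled reads in control and 253, 259, 242 and 254 in paused libraries. These did not overlap, with a log2 change of 0.15 (SE 0.11, limma adjusted p = 0.370). The other Socs3 peak called, 35.0 kb past the start site at chr11:117934288-117934488, was picked out after its values were seen and went from 168 ± 20.6 to 216 ± 26.7 scaled reads (SD, n = 4 each; limma adjusted p = 0.0429). That call was kept in 3 of 8 fits without 1 library, with limma adjusted p-values up to 0.177. It was lost with TMM, loess, edgeR with TMM and DESeq2.

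Gbx2, a homeobox factor, lies at chr1:89927962-89931176 on the minus strand and had 4 peaks. Added up, they held 432, 428, 459 and 453 scaled reads in control and 529, 546, 559 and 548 in paused libraries. The groups were far apart for their spread, 443 ± 15.4 against 546 ± 12.0 (SD, n = 4 each), and the log2 change of 0.30 (SE 0.07, limma adjusted p = 0.00207) was the largest of the 9 sums, with that of Lifr, at 0.29, well within its error. It was called in all 8 fits without 1 library and in edgeR with TMM, at an adjusted p of 0.0422, and narrowly missed with TMM rescaling in limma, at 0.0502. The start-site peak at chr1:89931168-89931368, printed above almost whole, was the strongest peak, the one of smallest p and the 1 start-site peak called among the 9 genes. It held 252, 290.2, 293 and 301 scaled reads in control and 349.5, 349, 365 and 357 in paused libraries. The lowest paused library was above the highest control library, and the log2 change was 0.32 (SE 0.10, limma adjusted p = 0.0287). The call held in 4 of 8 fits without 1 library and was lost without control replicate 1 and without paused replicates 2, 3 and 4, and with TMM, at 0.148, and loess, at 0.438.

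Pim1, a kinase known as a survival factor downstream of Stat proteins, lies at chr17:29490785-29496111 on the plus strand and had 18 peaks, 13 of them upstream. Their summed value was 1313, 1333, 1328 and 1345 scaled reads in control and 1411, 1434, 1443 and 1503 in paused libraries. The control libraries were very close to each other, and although the paused ones were all higher, the log2 change was 0.12 (SE 0.05, limma adjusted p = 0.0426), less than the median of all genes. The call was lost in 7 of 8 fits that left out 1 library, the fit without paused replicate 1 being the exception. The strongest Pim1 peak, 39.5 kb before the start site at chr17:29451234-29451434, stood above 99.2% of all peaks and was the 1 Pim1 peak called. It held 328, 265, 386 and 312 scaled reads in control and 366, 358, 431 and 459 in paused libraries, and the highest control library lay above a pair of the paused ones. Its log2 change was 0.33 (SE 0.11, limma adjusted p = 0.0448), with the call kept in 3 of 8 fits without 1 library and lost with TMM, loess, edgeR with TMM and DESeq2. A weaker peak 4.83 kb before the start site, at chr17:29485858-29486058, was chosen after its values were seen. It held 33.2, 40.6, 35.6 and 45.6 scaled reads in control and 27.7, 22.1, 23.3 and 29.3 in paused libraries, all below the control ones. Its log2 change of -0.58 (SE 0.20) missed the threshold at a limma adjusted p of 0.0517, and it was called lower with TMM, at 0.0279, loess, at 0.0329, and edgeR with TMM, at 0.0397, but not in DESeq2, at 0.151. The start-site peak at chr17:29491128-29491328 held 131, 213, 137 and 131 scaled reads in control and 202, 172, 191 and 162 in paused libraries, and control replicate 2 was the highest of the 8 (log2 change 0.27, SE 0.13, limma adjusted p = 0.168). Without that library the log2 change was 0.44 and the peak was called, at an adjusted p of 0.0163.

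Pim3, a close relative of Pim1, lies at chr15:88862194-88865726 on the plus strand and had 2 peaks of its own, neither of them within 2 kb of its listed start site. The stronger, 14.4 kb after the start at chr15:88876481-88876681, made up 90.0% of the summed value. It held 159, 168, 144 and 156 scaled reads in control and 142, 144, 188 and 197 in paused libraries. Paused replicates 1 and 2 lay below every control library and paused replicates 3 and 4 above every one. Its log2 change was 0.08 (SE 0.12, 95% interval -0.17 to 0.33, limma adjusted p = 0.707). The summed value followed it, at 176, 182, 164 and 175 scaled reads in control and 159, 166, 197 and 223 in paused libraries, with a log2 change of 0.08 (SE 0.11, 95% interval -0.14 to 0.31, limma adjusted p = 0.571).

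All peaks are 201 bp long, so the values of start-site peaks are given side by side per equal length, though the GC content before the start sites and the offset of the peak from the start differ between genes, and their part in the values was not tested. In control libraries the mean was highest at Stat3, at 291 scaled reads, followed by Gbx2 at 284 and Il6st at 275, and the ranges of these 3 overlapped. Jak1 at 228 and Socs3 at 227 came next, overlapping each other but not the first 3. Jak2 at 164, Lifr at 160.2 and Pim1 at 153 were the lowest, with overlapping ranges, and the highest Jak2 library reached the lowest Socs3 library. In paused libraries Gbx2, at 355, came before Stat3, at 337, again with overlapping ranges, Il6st stood at 292, and the order of the rest was the same. In all, 9 peaks lay within 1 kb of a listed start site, a second one at Lifr included, and 1 of the 9 was called higher, beside 11.3% of all peaks so placed called higher and 1.06% lower. Their median log2 change was 0.22, beside 0.18 for all such peaks, and at 4 of them (Jak1, Stat3, Socs3 and Gbx2) all paused libraries lay above all control libraries, as at 15.6% of all such peaks.

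**Figure D4:**
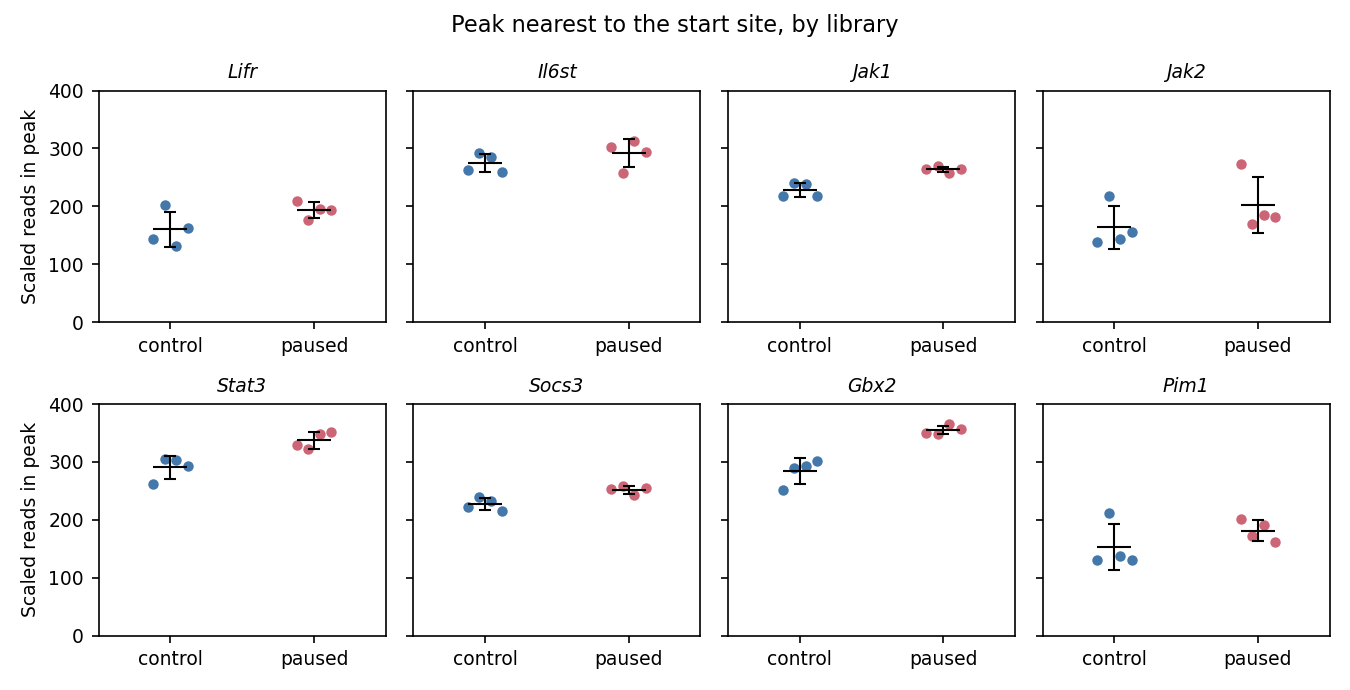
Scaled reads in the peak nearest to the start site, within 1 kb, for the 8 genes that have one, with Pim3 absent. Points are libraries and bars show the mean and SD over 4 libraries. The groups stand apart at Jak1, Stat3, Socs3 and Gbx2, and 1 paused library at Jak2 and 1 control library at Pim1 lie far above the rest of their group.

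Within 50 kb of the 9 genes, 81 peaks were nearer to another gene, and of the 73 tested 14 were higher and 0 lower in paused cells, or 19.2%, beside 11.0% of all tested peaks called higher. Their median log2 change was 0.13. The share depended on the scaling: with TMM it was 9.59%, beside 5.99% of all tested peaks, with edgeR and TMM 11.0%, beside 7.40%, and with the loess correction 4.11%, beside 5.10%. In DESeq2 it was 1.37%, beside 3.21%. The smallest p of all the windows, chosen after the values were seen, was in such a peak: chr11:100957467-100957667, inside Cavin1, a caveolae coat gene, and 18.0 kb before the Stat3 start site. It held 80.2, 62.1, 71.1 and 85.2 scaled reads in control and 139.6, 142, 107 and 121 in paused libraries. The groups lay apart, with a log2 change of 0.76 (SE 0.14, limma adjusted p = 0.000228), and the call held with TMM, at 0.0017, and with loess, at 0.0065. These data do not show which gene such a peak acts on.

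Around Stat3, the peaks of its relatives Stat5a and Stat5b, which lie next to it, gave 0 of 4 and 1 of 2 called higher, and those of Cavin1 2 of 9. Around Gbx2, 2 of 5 peaks of Agap1, 2 of 4 of Asb18 and 1 of 4 of LOC102637806 were higher. The Asb18 peak at chr1:89961993-89962193 went from 22.8 ± 6.18 to 42.5 ± 6.09 scaled reads (SD, n = 4 each; log2 change 0.91, limma adjusted p = 0.00450), the largest change in the windows, and was chosen after its values were seen. Around Pim3, 2 of 3 tested peaks of Creld2 were called, both upstream of Pim3, and around Socs3, 2 of 7 tested peaks of Pgs1. The peaks of Rln1 near Jak2 and of Tmem217 near Pim1 each gave 1 call, of 1 and 10 tested. None was called among those nearer to Egflam, Ankrd55, Il31ra, Raver2, Plgrkt, Insl6, Tha1, Ttll8, Alg12 or Gm33049. When own and neighbouring peaks within 50 kb were summed together, Jak2, at a limma adjusted p of 0.0346, and Pim3, at 0.000660 and a log2 change of 0.24, were called higher and Pim1 was not, at 0.0742. In that sum 10112 genes were called higher and 151 lower, beside 5414 higher and 255 lower in the sum of own peaks. Many more genes were thus called higher under this rule, and the share of genes tested is not given. The calls of Jak2 and Pim3 in it are not a result about these genes.

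**Figure D5:**
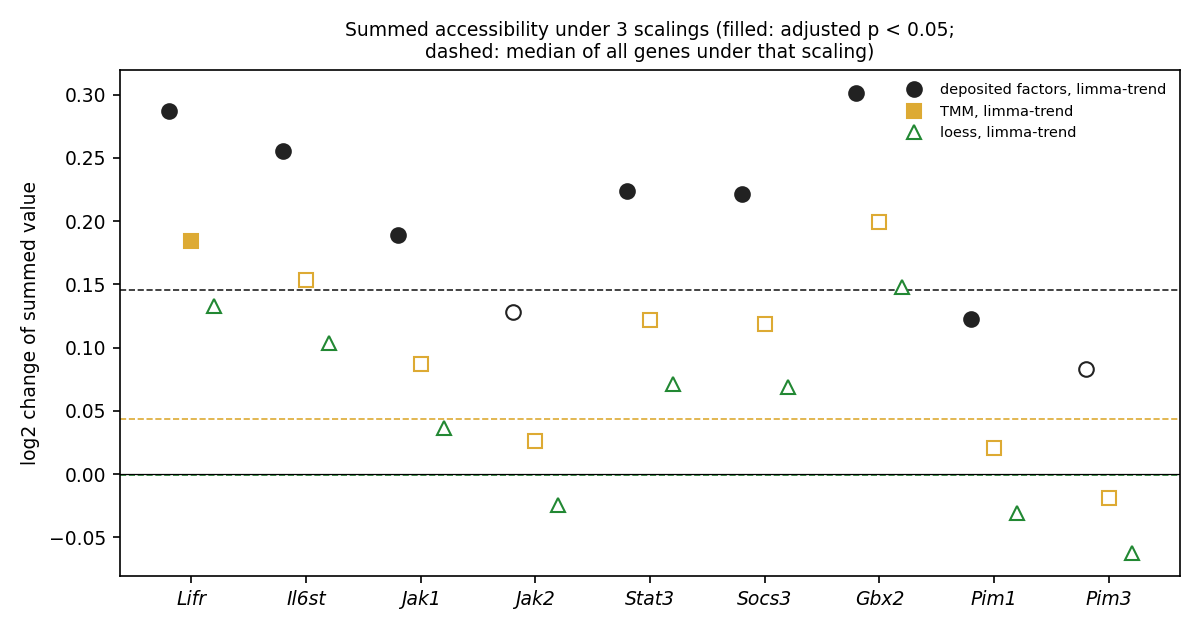
Log2 change of the summed value of each of the 9 genes, paused less control, under 3 scalings. Filled symbols have an adjusted p under 0.05, and dashed lines give the median of all genes under the same scaling. Filled symbols go from 7 genes with the deposited factors to Lifr alone with TMM and to none with loess.

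Of 41 other genes of the pathway, all with a summed value that could be tested, 13 were higher and 1 was lower in paused cells, or 31.7% and 2.44%, beside 29.8% and 1.40% of all genes. Their median log2 change was 0.15, equal to that of all genes when rounded. Their 276 tested peaks gave 31 higher and 6 lower, or 11.2% and 2.17%, beside 11.0% and 2.91% of all tested peaks. These shares are near the background and are not a result about the pathway. With TMM rescaling 3 of the 41 were called higher and 1 lower, beside 7.56% and 2.38% of all genes. Among 10 ligands and receptors of the gp130 family, Lif (log2 change 0.18), Il11 (0.30), Osm (0.30) and the IL-6 receptor subunit Il6ra (0.21) were higher. Clcf1, a ligand of the CNTF receptor, was the 1 gene lower, at 109 ± 13.6 scaled reads in control and 83.8 ± 3.99 in paused libraries (SD, n = 4 each; log2 change -0.36, limma adjusted p = 0.0315), and stayed so with TMM, at 0.0188, and loess, at 0.0139. Among 8 other Janus kinases and Stats, Stat4 (log2 change 0.28) and Stat5b (0.26) were called higher.

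Among 14 inhibitors and adaptors other than Socs3, the Socs family genes Socs5 (log2 change 0.31) and Socs6 (0.28) were higher. Socs5 kept its call with TMM, at a limma adjusted p of 0.0293, and lost it with loess, at 0.0929. Among 9 other genes known to respond to Stat3, 5 were higher, in a fit that called 29.8% of all genes higher, and with TMM rescaling 2 were, beside 7.56%. The 5 were the pluripotency factors Klf4 (log2 change 0.26), Klf5 (0.19) and Tfcp2l1 (0.31), the growth factor-responsive Myc (0.27) and the NF-kappaB cofactor Bcl3 (0.16). Tfcp2l1, which went from 1232 ± 64.4 to 1526 ± 102 scaled reads over its peaks (SD, n = 4 each), was called with TMM, at 0.00650, and with loess, at 0.0268. Myc was called with TMM, at 0.0481, and not with loess.

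The gene whose summed value followed each gene most closely over the 8 libraries was found among 18178 genes, and is given for all of the 9 but Il6st. The Pearson correlation was 0.994 for Lifr with Ushbp1, 0.987 for Jak1 with Slain1, 0.989 for Jak2 with Trpc1, and 0.995 for Stat3 with Epp13. It was 0.988 for Socs3 with 1110051M20Rik, 0.997 for Gbx2 with Arhgap28, 0.995 for Pim1 with Slc44a3 and 0.967 for Pim3 with Supv3l1. None of the 9 genes was the closest to another of the 9. The libraries share their scaling factors and the difference between the groups, and these are the highest of many correlations, so they are a description only.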

How the data were processed

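ATAC-seq libraries of 50000 cells were read as 150 bp pairs, per the labels' protocols. Build mm10 and the tools FastQC, Trim Galore, Bowtie2 2.4.1, MACS3 3.0.3 and DiffBind 3.16.0 are listed, without roles, per the submitters' processing notes. The authors deposited 1 table of 134407 peaks. As deposited by the authors, the per-sample signal is the number of reads in a peak divided by 1 factor per sample, which was worked out from the values: 100% of values in every library are whole multiples of 1 step (tolerance 0.006). The authors also deposited log2 concentrations and folds, and p-values with FDR. How the factors were made, read filters and Tn5 offsets are not given in the sources used here.

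Samples were grouped by their titles. A peak's gene and start site came from RefSeq tables of GRCm38.p6, with 21883 protein-coding genes and start sites for 17491 of them. Exons and introns were not analysed here. A peak belonged to a gene if its centre lay inside it, or outside all protein-coding genes with that gene nearest within 50 kb. Peaks with a mean of at least 10, and sums per gene, were tested as log2(value + 1) with limma-trend (limma 3.58.1, R 4.3.3), Benjamini-Hochberg over the whole table, at 0.05. A log2 change on this scale understates that of low peaks. The value of 3 reads ran from 1.04 to 5.08 between libraries, so weak peaks are less precise, above all in the shallowest. Alternatives were TMM, loess, edgeR 4.0.16 and DESeq2 1.42.0 on the recovered reads, filters, pseudocounts, windows, a replicate block and each library left out. Scripts were tested on simulated data. Named peaks were the one nearest to the start site, the strongest and that of smallest p of each gene, with exceptions marked. The genes and lists were chosen with earlier results of these data known. The gene most like Il6st is not reported here.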

Additional observations from a re-analysis of the deposited data

Results flagged for a closer look

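In 54 groups of 4 libraries (18 named peaks and 9 summed values in each condition), the library farthest from the rest of its group was compared with Dixon's 95% critical value for 4 values, which chance alone passes in about 1 of 20 groups, and 2 groups passed. In the paused group, the Jak2 start-site peak was at 273 scaled reads in replicate 1, against 169 to 185 in the other 3 libraries, a gap of 0.848 of the whole range. In the control group, the Pim1 start-site peak was at 213 scaled reads in replicate 2, against 131 to 137 in the other 3, a gap of 0.922 of the range. Neither peak was called with all 8 libraries. Without the distant library, the log2 change of the Jak2 peak went from 0.30 to 0.15 and that of the Pim1 peak from 0.27 to 0.44, and the Pim1 peak was then called, at a limma adjusted p of 0.0163. Control replicate 2 was the highest control library at every named start-site peak but that of Gbx2, though by little at Il6st, Jak1, Stat3 and Socs3. Without it the Jak2 and Lifr start-site peaks were called too, at limma adjusted p-values of 0.0249 and 0.0257. What these values of control replicate 2 come from was not tested.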

How the results depend on the processing

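With a mean of at least 50 required, 0 own peaks and 751 of all peaks were called lower. TMM rescaling in limma gave 5 own peaks higher and 2 lower, 7 neighbouring peaks higher, 7630 of all peaks higher, 1 of the 9 summed genes higher, and 1375 of all genes higher and 433 lower. The loess correction gave 5 own peaks higher and 2 lower, 3 neighbouring peaks higher and 1 lower, 6497 of all peaks higher, 0 of the 9 genes higher, and 849 of all genes higher and 782 lower. edgeR with TMM gave 5 own peaks higher and 3 lower, 8 neighbouring peaks higher and 1 lower, 6759 of all peaks lower, 2 of the 9 genes higher, and 1556 of all genes higher and 451 lower. DESeq2 gave 4 own peaks higher and 0 lower, 1 neighbouring peak higher, 4085 of all peaks higher and 1840 lower, 1 of the 9 genes higher, and 894 of all genes higher and 200 lower. edgeR with the deposited factors called the same numbers of own peaks and of the 9 genes as limma, 13 higher and 1 lower, and 7. The peaks were not all the same, as the strongest Socs3 peak lost its call, at an edgeR adjusted p of 0.0525. Of all peaks this setting called 16424 higher and 4621 lower, beside 13958 and 3702 in limma. Of all genes it called 5755 higher and 268 lower, beside 5414 and 255. A 20 kb window left 4 neighbouring peaks higher, and summing all peaks within 50 kb gave 10112 of all genes higher and 151 lower.

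Signs turned at the Il6st start-site peak (TMM -0.019, loess -0.13, edgeR -0.0089, DESeq2 -0.0094), the strongest Pim3 peak (-0.020, -0.12, -0.011 and -0.011), the Pim3 sum (-0.019, -0.062, -0.0076 and -0.0079), and with loess at the Socs3 start-site peak (-0.060), the Jak2 sum (-0.025) and the Pim1 sum (-0.030). With 1 library left out, the Pim3 peak ran from -0.00066 to 0.16 and the Pim3 sum from -0.0070 to 0.15, the lowest being without paused replicate 4. None of these was past the threshold on its turned side. Of the other values for single peaks and genes, 343 kept direction and side of the threshold, 97 lost the call and 8 gained it.

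With each library left out in turn, own peaks called ran from 5 to 13 higher and 0 to 4 lower, neighbouring peaks from 8 to 13 higher and 0 to 1 lower, and all peaks from 8963 to 12696 higher and 2301 to 3893 lower. The 9 genes gave 4 to 7 higher and 0 to 0 lower, and all genes 3620 to 5559 higher and 164 to 247 lower. The fewest own peaks, 5, were called without paused replicate 4, then 6 without paused replicate 3, 7 without control replicate 1 or paused replicate 2 and 8 without control replicate 3 or 4. Only 4 of the 9 genes were called without control replicate 1 or without paused replicate 4.

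With the replicate number as a block, 17 own peaks were higher and 2 lower, beside 13.6% and 3.63% of all peaks, and 7 of the 9 genes were higher, beside 36.8% of all genes. Deviations of same-numbered libraries correlated at 0.079, 0.036, 0.13 and 0.039. Control replicate 2 correlated better with paused replicate 1, at 0.070, and paused replicate 2 with control replicate 1, at 0.062. The other libraries correlated best with their own number. Whether same-numbered libraries share more than a number was not tested. Depth limits the weak peaks most: the lowest count behind a named peak was 7 reads, at the Jak2 peak of smallest p. Where no cause is given above, the cause was not tested.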
